A study of Mus musculus with 13 samples.

Results

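The genes described here encode the enzymes and cofactors of lipolysis, the stepwise hydrolysis of stored triacylglycerol (TAG). They are 10 genes chosen by name, and each was matched by symbol to a row of the count table, which holds 34419 genes. RNA-seq was performed on gluteal white adipose tissue (WAT) of C57BL/6J mice kept at 22°C (7 libraries) or at 29°C (6 libraries) until 13 weeks of age. The lower temperature is standard for animal rooms, and the higher one is close to thermoneutrality, at which mice need little extra heat production. Males were used, housing began at birth, and the mice lived alone with little bedding and without nests. Posterior hair was taken off after weaning in all mice of both groups, so that hair loss does not differ between them and fully furred mice are not part of the comparison. The study used the gluteal depot because, under such housing, it is little prone to forming beige adipocytes. Each library carries a replicate number in the labels, and the spread between replicates is taken here as the spread between mice.

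Adipocytes keep TAG in a lipid droplet and release it in steps. Adipose triglyceride lipase (ATGL), the product of *Pnpla2*, removes the first fatty acid, hormone-sensitive lipase (HSL), the product of *Lipe*, acts mainly on the diacylglycerol that is formed, and monoacylglycerol lipase (*Mgll*) frees glycerol and the last fatty acid. *Abhd5* (CGI-58) activates ATGL and *G0s2* inhibits it, while the glycerol leaves the cell through the channel encoded by *Aqp7*. *Abhd6* is a further monoacylglycerol lipase, *Ces1d* is a carboxylesterase with TAG hydrolase activity, *Lipa* is the acid lipase of lysosomes, and *Pnpla3* is a close relative of *Pnpla2* that binds *Abhd5*. During cold exposure catecholamines drive this pathway through β-adrenergic receptors and protein kinase A, which acts by phosphorylating HSL and perilipin 1, a step that an RNA measurement does not read.

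The promoters of *Pnpla2* and *Lipe* are shown because these genes encode the first enzymes of the pathway. Their RNA levels also varied together between mice (r = 0.71), but whether this relation passed depended on the libraries used, as described further on. *Pnpla2* varied as closely with *Ces1d* (r = 0.73) and *Abhd6* (r = 0.72), and *Lipe* varied more closely with *Mgll* (r = 0.82). Shared regulation of the promoters was not tested. The promoter windows come from RefSeq (GRCm38.p6) and reach from 250 bases before to 50 bases after an annotated transcription start. They are written 5′ to 3′ on the gene's own strand. Capitals mark GC boxes (GGGCGG), an E box (CACGTG) and a forkhead motif (GTAAACA), each searched on both strands. The *Pnpla2* window is chr7:141454938-141455237 on the plus strand, and *Lipe* has an upstream start (chr7:25395938-25396237) and a downstream start (chr7:25390063-25390362), both on the minus strand.
Pnpla2: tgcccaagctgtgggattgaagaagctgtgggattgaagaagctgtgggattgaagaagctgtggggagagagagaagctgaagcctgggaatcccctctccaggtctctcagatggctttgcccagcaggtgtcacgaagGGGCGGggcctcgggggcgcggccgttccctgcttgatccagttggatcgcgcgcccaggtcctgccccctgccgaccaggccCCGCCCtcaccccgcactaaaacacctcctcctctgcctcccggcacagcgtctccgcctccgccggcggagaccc
Lipe, upstream start: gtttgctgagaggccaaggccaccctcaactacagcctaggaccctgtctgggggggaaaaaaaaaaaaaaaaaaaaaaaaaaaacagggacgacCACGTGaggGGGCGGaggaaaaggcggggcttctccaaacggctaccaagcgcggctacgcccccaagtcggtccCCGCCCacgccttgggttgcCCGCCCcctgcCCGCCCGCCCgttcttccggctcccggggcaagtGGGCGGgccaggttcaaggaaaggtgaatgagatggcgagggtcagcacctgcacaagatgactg
Lipe, downstream start: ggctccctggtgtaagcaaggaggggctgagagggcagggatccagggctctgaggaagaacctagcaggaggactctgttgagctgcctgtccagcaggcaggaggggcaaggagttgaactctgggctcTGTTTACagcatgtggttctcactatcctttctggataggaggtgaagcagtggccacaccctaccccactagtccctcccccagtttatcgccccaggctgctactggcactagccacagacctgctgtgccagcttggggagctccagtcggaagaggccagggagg

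The *Pnpla2* window held 2 GC boxes, the upstream *Lipe* window held 6 GC boxes, some of them overlapping, and 1 E box, and the downstream *Lipe* window held only the forkhead motif out of 8 motifs searched. A GC box was found in 35.7% of 32851 promoters of this length, an E box in 7.15% and the forkhead motif in 3.65%. Of the 10 lipolysis genes, 9 had at least 1 such window and *Ces1d* had none in the table. A GC box was present for 8 of them, a CCAAT box (CCAAT, 37.4% of all promoters) for 3, an E box for 2, the forkhead motif for 2, a TATA box (TATAAA, 13.6%) for 1 and a cAMP response element (TGACGTCA, 1.79%) for 1. No window held the motifs TTGCNNAA, which binds C/EBP factors (10.8% of all promoters), or the DR1 motif, which binds PPARγ with RXR (0.0396%). The counts are per gene over all its windows, and 4 genes had 2, whereas the percentages are per single window, so that they are not directly comparable. Such matches describe the letters of the window and do not show that a factor binds there.

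Library totals lay between 22356637 and 25245785 counts and fell into separate clusters, with 22°C replicates 1 to 5 at or below 22857079 and the other 8 libraries at or above 24821549. Both clusters held 22°C libraries, whereas all 29°C libraries belonged to the higher one. Mature adipocyte markers (8 genes) summed to between 18919 and 29113 CPM (counts scaled to a common library size) in the 22°C group and between 23637 and 30036 CPM in the 29°C group, and none was at 0 in any library. Skeletal muscle markers (10 genes) summed to between 749 and 78879 CPM in the 22°C group, against 147 to 6429 CPM in the 29°C group. The largest sums belonged to 22°C replicate 7 (78879 CPM) and 22°C replicate 1 (56804 CPM), and these libraries also had the lowest sums of adipocyte markers (18919 and 22406 CPM). All 10 muscle markers had a higher mean at 22°C, and their lowest P-adj was 0.22, for *Myl1*. The lipolysis genes were therefore also fitted without both libraries and, separately, with the mean log2 CPM of the muscle markers (muscle score) as a covariate. Of the 22°C libraries only replicates 6 and 7 had higher totals. Fits limited to higher totals thus kept replicate 7, which was rich in muscle RNA. Markers of brown and beige fat (7 genes) summed to between 45.9 and 174 CPM at 22°C and to between 14.6 and 38.2 CPM at 29°C without overlap. The top of the 22°C range came from replicates 1 and 7 (174 and 134 CPM), and the other libraries of that group lay between 45.9 and 76.1 CPM. Of these markers 6 were tested, and *Cidea*, *Cox8b* and *Otop1* were higher at 22°C by the test (0.731% of all tested genes). *Ucp1* and *Elovl3* were at 0 in some libraries. Among all tested genes taken singly, the groups did not overlap for 1.24%. How much muscle RNA adds to the brown and beige sum was not tested. The markers of 6 other cell classes summed to at most 1314 CPM for macrophages, 577.6 CPM for endothelium, 4707 CPM for fibroblasts and progenitors, 227 CPM for epithelium, 21.2 CPM for lymphocytes and 7.02 CPM for neutrophils. Of 7 lymphocyte markers tested, only *Cd3e* was called, higher at 22°C (0.731% of all tested genes). The lymphocyte sums overlapped, at 2.54 to 21.2 CPM at 22°C and 2.27 to 15.4 CPM at 29°C. In bulk tissue, fewer cells of a type and less RNA per cell cannot be told apart.

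Which lipolysis genes are most abundant in this depot was read from CPM per kilobase of exon. Length was that of all annotated exons merged, so the order depends on it, and which isoforms the tissue uses was not measured. Together the 10 genes took 0.899% of all counts. *Pnpla2* stood first, with 1059 CPM per kb on average, the 31st highest value among 17725 tested genes of known length. *Lipe* followed with 439.6 CPM per kb, then *Ces1d* with 400.0, *G0s2* with 333.5, *Mgll* with 263 and *Pnpla3* with 182. Much lower were *Abhd5* (32.3 CPM per kb), *Aqp7* (23.6), *Abhd6* (10.6) and *Lipa* (8.92), so that RNA of the ATGL inhibitor was listed at a higher level than RNA of the activator. The merged exons are 5886 bases long for *Lipe* and 3020 for *Pnpla2*. Before division by length there were 0.847 (22°C) and 0.772 (29°C) counts of *Lipe* per count of *Pnpla2*. Per kb, *Pnpla2* exceeded *Lipe* in all 13 libraries, by 2.40-fold on average. On the same scale *Pnpla3* exceeded *Abhd5* in all 13, by 5.40-fold, and *Aqp7* exceeded *Abhd6* in all 13, by 2.19-fold. The other neighbours changed places from mouse to mouse. *Lipe* was above *Ces1d* in 8 libraries, *Ces1d* above *G0s2* in 8, *G0s2* above *Mgll* in 9, *Mgll* above *Pnpla3* in 10, and *Abhd5* above *Aqp7* as well as *Abhd6* above *Lipa* in 11. Depth did not limit these levels, since 3 counts correspond to at most 0.134 CPM and the lowest count of any of these genes was 441, for *Abhd6*.

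None of the 10 lipolysis genes differed between 22°C and 29°C at P-adj below 0.1 (edgeR quasi-likelihood test, Benjamini-Hochberg adjustment over 17779 genes), against 1.94% of all tested genes. At an unadjusted p below 0.05 the count was also 0 of 10 (18.5% of all genes), and it was 0 with DESeq2 (10.2% of all genes called) and with limma on the deposited rlog values (2% of all genes called, 356 in number). The groups overlapped for every one of the 10 genes, and did not overlap for 1.24% of all genes. Of the 10, 4 had a higher and 6 a lower mean at 22°C. Their median log2 fold change was -0.03, beside 0.01 over all tested genes, and the median size of the change without regard to sign was 0.11, beside 0.14. How narrowly this bounds a change depends on the gene, because the genes varied between mice to very different degrees.

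**Figure D1:**
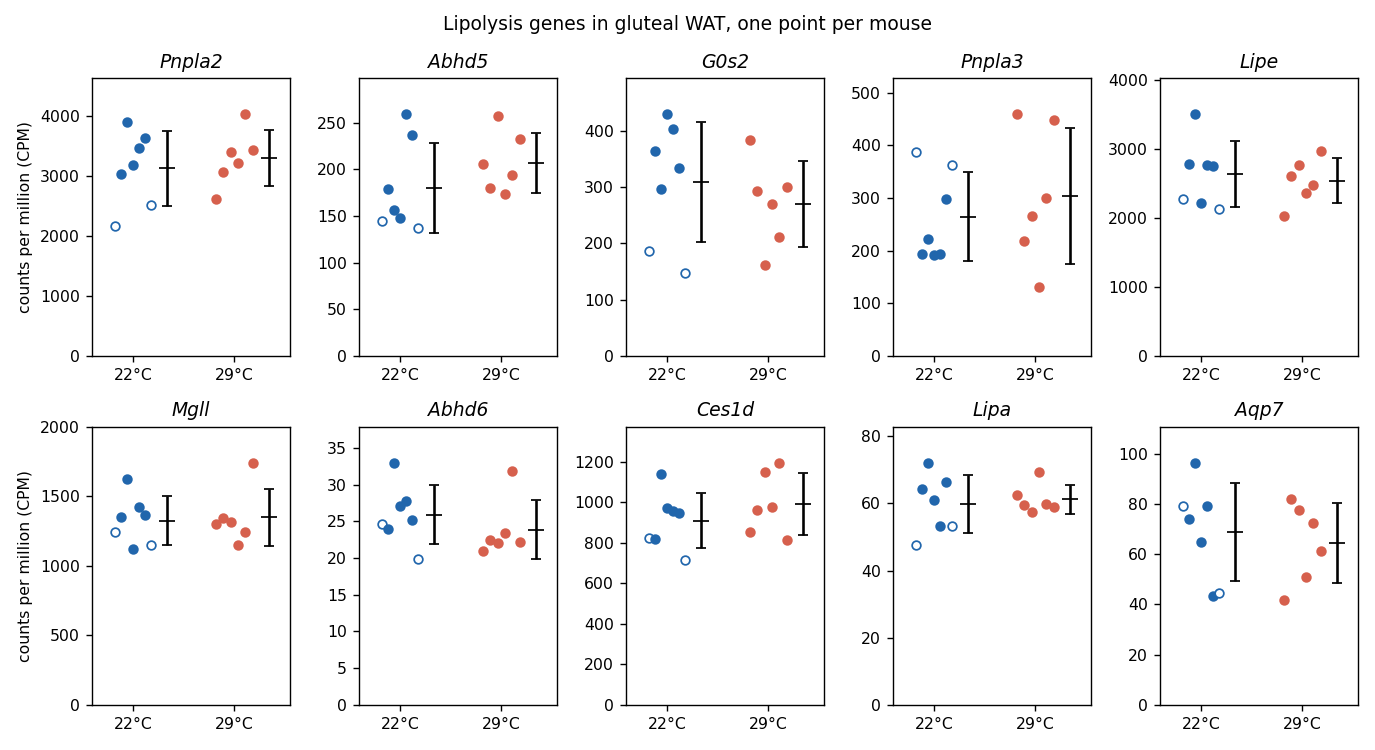
CPM of the 10 lipolysis genes, a panel per gene with the y axis in CPM from 0, 1 point per library, 22°C in blue and 29°C in red, with the mean and SD beside each group. The open points are the 2 libraries with the most skeletal muscle RNA (22°C replicates 1 and 7), which lie at the bottom of the 22°C group for *Pnpla2*, *Abhd5* and *G0s2*, and in every panel the ranges of the groups overlap.

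*Pnpla2*, which encodes ATGL, lay at 2156, 3172 and 3898 CPM (lowest, median and highest) at 22°C and at 2606, 3305 and 4023 CPM at 29°C. The lowest 22°C values were those of replicate 1 (2156 CPM) and replicate 7 (2507 CPM), and the other libraries of that group lay within the range at 29°C. Mean levels were 3123 ± 620 CPM (SD, n = 7) and 3289 ± 468 CPM (SD, n = 6), the 22°C group first. The log2 fold change, 22°C relative to 29°C here and below, was -0.07 (SE 0.15, P-adj = 0.825). Its 95% confidence interval ran from a 0.760-fold to a 1.19-fold level at 22°C. Without 22°C replicates 1 and 7, left out after the data were seen because of their muscle RNA, the log2 fold change of *Pnpla2* was 0.06 (SE 0.12, P-adj = 0.846).

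*Abhd5*, the activator of ATGL, lay at 137, 156 and 259 CPM at 22°C and at 174, 200.1 and 257 CPM at 29°C. All 6 libraries at 29°C were above the 22°C median, yet 22°C replicate 5 (259 CPM) and replicate 6 (237 CPM) reached the top of the 29°C range. The means were 180.2 ± 48.6 CPM (SD, n = 7) and 207 ± 32.1 CPM (SD, n = 6), and the log2 fold change was -0.20 (SE 0.16, P-adj = 0.542; 95% interval 0.683-fold to 1.11-fold). The lowest P-adj over all alternatives was 0.268, without 22°C replicate 5. Exons of an antisense gene, *A730085K08Rik* (45.8 CPM), overlap *Abhd5* in GENCODE vM21, and it is not given in the sources used here whether counting used the strand.

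*G0s2*, the inhibitor of ATGL, varied 2.91-fold, at 148, 334 and 429 CPM at 22°C and at 161, 281 and 384 CPM at 29°C. The libraries rich in muscle RNA, 22°C replicates 1 and 7, held the lowest 22°C values (186 and 148 CPM), and the other 5 lay between 296 and 429 CPM. With all libraries the means were 308 ± 106 CPM (SD, n = 7) and 269.8 ± 77.0 CPM (SD, n = 6), and the log2 fold change was 0.19 (SE 0.26, P-adj = 0.732; 95% interval 0.781-fold to 1.67-fold). Without these 2 libraries, an alternative chosen after the data were seen, the log2 fold change of *G0s2* was 0.43 (SE 0.19, P-adj = 0.311). Among the 8 libraries with higher totals the *G0s2* value was -0.18 (SE 0.36, P-adj = 0.874). The 2 libraries at 22°C in that fit were replicates 6 and 7, and replicate 7 had the most muscle RNA. The direction for *G0s2* thus turned with the libraries used.

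*Pnpla3* had the widest spread of the 10 genes, 3.53-fold from the lowest to the highest library. It lay at 192, 222 and 386 CPM at 22°C and at 130.0, 283 and 459 CPM at 29°C. The highest levels at 22°C were those of replicate 1 (386 CPM) and replicate 7 (363 CPM), where *Pnpla2*, *Abhd5* and *G0s2* were low. Mean levels were 263.9 ± 84.6 CPM (SD, n = 7) and 304 ± 129 CPM (SD, n = 6), and the log2 fold change was -0.20 (SE 0.28, P-adj = 0.745; 95% interval 0.571-fold to 1.32-fold). Without 22°C replicates 1 and 7 the log2 fold change of *Pnpla3* was -0.47 (SE 0.29, P-adj = 0.471). Leaving out a single library gave values from -0.36 (without 29°C replicate 4) to -0.05 (without 29°C replicate 1), and among the libraries with higher totals it was 0.11 (SE 0.42, P-adj = 0.937). Exons of *Gm49513* (51.8 CPM) overlap it on the same strand, so reads of the shared part cannot be assigned with certainty.

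*Lipe*, which encodes HSL, was among the steadier genes, at 2127, 2747 and 3504 CPM at 22°C and at 2031, 2542 and 2967 CPM at 29°C. Apart from 22°C replicate 3 (3504 CPM), every library at 22°C lay within the range at 29°C. The means were 2631 ± 478 CPM (SD, n = 7) and 2537 ± 327 CPM (SD, n = 6), and the log2 fold change was 0.05 (SE 0.13, P-adj = 0.867; 95% interval 0.850-fold to 1.27-fold). Without 22°C replicates 1 and 7 it was 0.14 (SE 0.13, P-adj = 0.657), and with the muscle marker score as a covariate it was 0.23 (SE 0.11, P-adj = 0.477). The gene *4732471J01Rik* (856 CPM) lies on the opposite strand with exons that overlap those of *Lipe* in GENCODE vM21, and its level over the 13 libraries had a Pearson r of 0.98 with *Lipe*. Without the strand setting, reads of *Lipe* and *4732471J01Rik* cannot be told apart. Like *Lipe*, *4732471J01Rik* did not pass the test (log2 fold change 0.10, SE 0.12, P-adj = 0.715).

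*Mgll*, the monoacylglycerol lipase, lay at 1118, 1352 and 1624 CPM at 22°C and at 1146, 1309 and 1740 CPM at 29°C. Both groups spanned nearly the same levels, and only 29°C replicate 6 (1740 CPM) was above the 22°C range. With means of 1325 ± 174 CPM (SD, n = 7) and 1348 ± 204 CPM (SD, n = 6), the log2 fold change was -0.03 (SE 0.12, P-adj = 0.932; 95% interval 0.826-fold to 1.17-fold). Exons of the antisense gene *Gm26588* (70.2 CPM) overlap *Mgll*. *Abhd6*, the other monoacylglycerol lipase, was far less abundant, at 19.9, 25.2 and 33.0 CPM at 22°C and at 21.0, 22.3 and 31.9 CPM at 29°C. Of the 22°C libraries, 6 of 7 were above the 29°C median, but 29°C replicate 5 (31.9 CPM) lay close to the top of the 22°C range. Its means were 25.95 ± 4.01 CPM (SD, n = 7) and 23.9 ± 4.01 CPM (SD, n = 6), and the log2 fold change was 0.12 (SE 0.12, P-adj = 0.629; 95% interval 0.910-fold to 1.30-fold). Without 29°C replicate 5 the *Abhd6* log2 fold change was 0.22 and P-adj was 0.303.

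*Ces1d*, the carboxylesterase, lay at 714, 946 and 1138 CPM at 22°C and at 813, 970 and 1195 CPM at 29°C. Its lowest value was again that of 22°C replicate 7. *Ces1d* belongs to a family of related genes, and whether some of its reads are uncertain for that reason was not tested. The means were 910 ± 138 CPM (SD, n = 7) and 992 ± 153 CPM (SD, n = 6), and the log2 fold change was -0.12 (SE 0.12, P-adj = 0.633; 95% interval 0.762-fold to 1.10-fold). *Lipa*, the lysosomal lipase, lay at 47.6, 61.1 and 72.1 CPM at 22°C and at 57.5, 59.7 and 69.4 CPM at 29°C. It was the steadiest of the 10 genes, and the low end was again 22°C replicate 1 (47.6 CPM). Its means were 59.8 ± 8.67 CPM (SD, n = 7) and 61.3 ± 4.33 CPM (SD, n = 6), and the log2 fold change was -0.04 (SE 0.09, P-adj = 0.864; 95% interval 0.851-fold to 1.12-fold).

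*Aqp7*, the glycerol channel, lay at 43.5, 73.9 and 96.4 CPM at 22°C and at 41.9, 66.9 and 82.2 CPM at 29°C. The 22°C values were split by library total, since replicates 6 and 7 (43.5 and 44.7 CPM), the only 22°C libraries with higher totals, were the lowest of their group and the other 5 lay between 64.9 and 96.4 CPM. Over all libraries the means were 68.9 ± 19.4 CPM (SD, n = 7) and 64.4 ± 15.9 CPM (SD, n = 6), and the log2 fold change was 0.10 (SE 0.20, P-adj = 0.836; 95% interval 0.788-fold to 1.45-fold). Among the 8 libraries with higher totals the log2 fold change of *Aqp7* was -0.56 (SE 0.25, P-adj = 0.400), and with the cluster of totals as a covariate it was -0.55 (SE 0.23, P-adj = 0.345). The cluster with lower totals held 22°C libraries only and gave no such value. The part of library depth in this split was not tested.

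For the remaining genes too, leaving out 22°C replicates 1 and 7 moved the log2 fold change without bringing it past the test. It was -0.08 for *Abhd5* (P-adj = 0.846), 0.03 for *Mgll* (P-adj = 0.945), 0.20 for *Abhd6* (P-adj = 0.465), -0.04 for *Ces1d* (P-adj = 0.911), 0.05 for *Lipa* (P-adj = 0.811) and 0.15 for *Aqp7* (P-adj = 0.779). With the muscle score as a covariate the value for *Abhd5* was -0.04 (P-adj = 0.954) and that for *Mgll* was 0.13 (P-adj = 0.647).

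**Figure D2:**
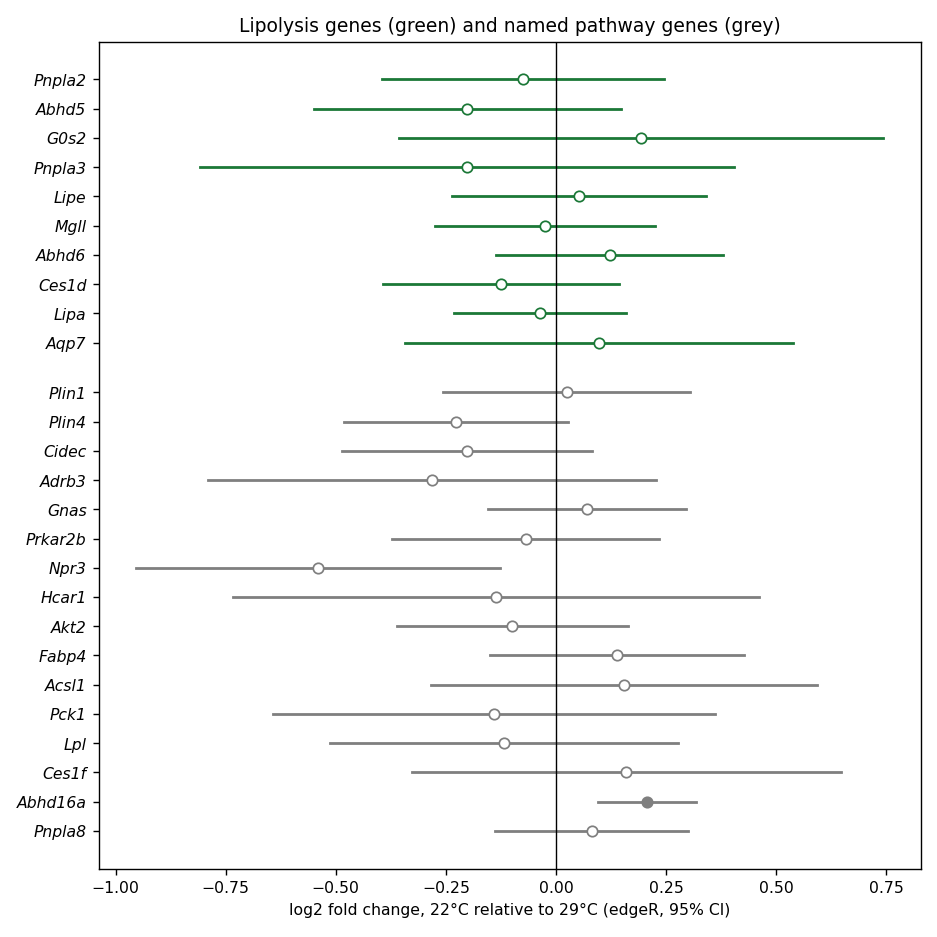
Log2 fold change, 22°C relative to 29°C, for the 10 lipolysis genes (green) and 16 further genes of the pathway (grey), with 95% confidence intervals from edgeR as lines. The interval crosses 0 for all 10 lipolysis genes, *Pnpla3* and *G0s2* have the widest intervals among them, and the filled point is *Abhd16a*, the only gene drawn that passed P-adj below 0.1.

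For each of the 10 genes the SD between mice of a group was larger than the difference between the groups on the log2 scale, and the spread was uneven among the genes. On the log2 CPM scale the within-group SD was 0.57 for *Pnpla3*, 0.52 for *G0s2* and 0.41 for *Aqp7*, and these values were at the 94.6th, 93.9th and 90.1th percentiles of the 10333 genes that averaged at least 10 CPM. For *Abhd5* it was 0.31 and for *Pnpla2* 0.26. The remaining genes were quieter, with an SD between 0.17 (*Lipa*, 47.9th percentile) and 0.23 (*Lipe*, 68.4th percentile), where the median of all these genes was 0.17. As a description of these 13 libraries, the RNA of *Pnpla2*, *Lipe* and *Mgll* varied less between mice than the RNA of *G0s2* and *Aqp7*.

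The balance between an enzyme and its regulators was compared within each library, where differences in scaling cancel, as the log2 ratio of counts. The *G0s2* to *Pnpla2* ratio averaged -3.40 ± 0.42 (SD, n = 7) in the 22°C group against -3.65 ± 0.60 (SD, n = 6) in the 29°C group, equal to 0.0944 and 0.0798 counts of *G0s2* per count of *Pnpla2*. The *Abhd5* to *Pnpla2* ratio was -4.13 ± 0.32 and -3.99 ± 0.28. For *G0s2* to *Abhd5*, the inhibitor to the activator, it was 0.73 ± 0.48 and 0.34 ± 0.56, and the only library with fewer counts of the inhibitor than of the activator was 29°C replicate 3 (-0.67). The *Lipe* to *Pnpla2* ratio was -0.24 ± 0.20 and -0.37 ± 0.18, and *Lipe* had more counts than *Pnpla2* only in 22°C replicate 1 (0.07). *Mgll* to *Lipe* was the tightest ratio at 22°C, with -0.98 ± 0.08, and was -0.91 ± 0.17 at 29°C. The *Aqp7* to *Pnpla2* ratio was -5.53 ± 0.50 and -5.70 ± 0.30. The groups overlapped for all 6 ratios.

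The differences in these ratios, 22°C minus 29°C, did not pass an exact permutation test (two-sided), which compares each with those of relabelled libraries. The largest was that of *G0s2* to *Abhd5*, at 0.38 (SE 0.29, exact p = 0.224), followed by *G0s2* to *Pnpla2* at 0.24 (SE 0.29, exact p = 0.410). *Lipe* to *Pnpla2* differed by 0.13 (SE 0.10, exact p = 0.241) and *Aqp7* to *Pnpla2* by 0.17 (SE 0.22, exact p = 0.470). *Abhd5* to *Pnpla2* differed by -0.14 (SE 0.17, exact p = 0.413) and *Mgll* to *Lipe* by -0.07 (SE 0.08, exact p = 0.397). After adjustment over the 6 ratios every exact p was 0.470. Among the libraries with higher totals the sign turned for *G0s2* to *Pnpla2* (-0.12), *G0s2* to *Abhd5* (-0.04) and *Aqp7* to *Pnpla2* (-0.39). At 22°C these libraries were replicate 6 and replicate 7, the latter rich in muscle RNA.

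**Figure D3:**
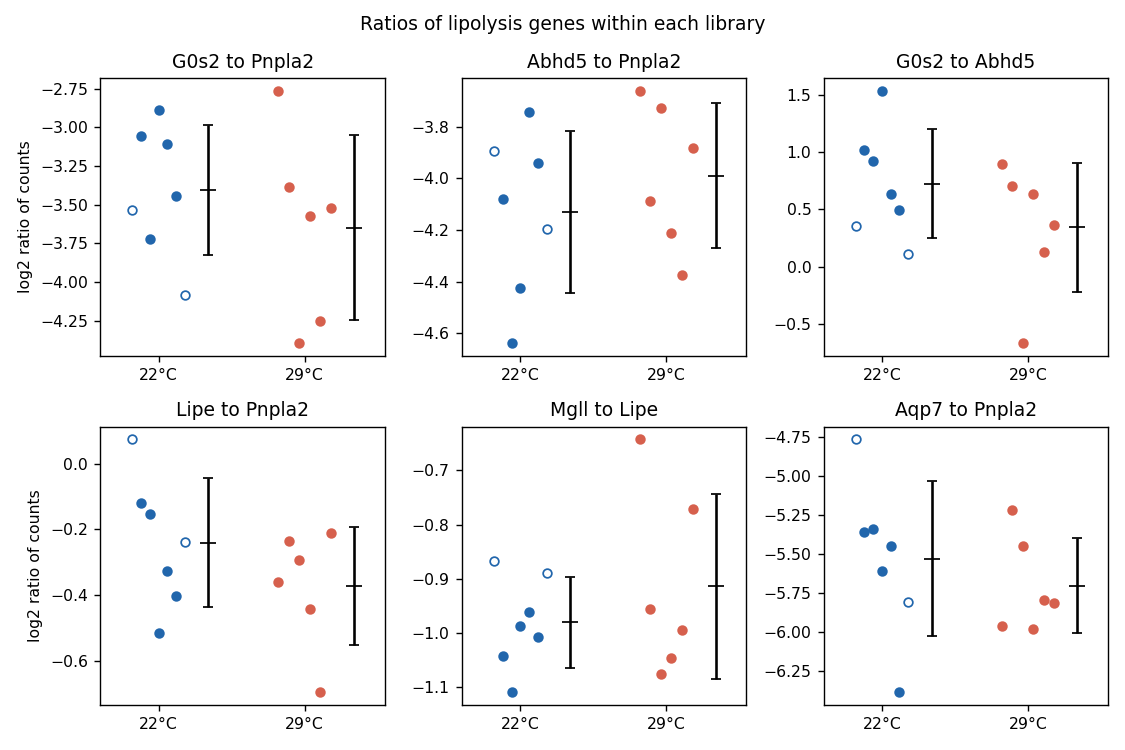
Log2 ratio of counts within each library for 6 pairs of lipolysis genes, 1 point per library, 22°C in blue and 29°C in red, with the mean and SD beside each group and open points for 22°C replicates 1 and 7. The y axes do not start at 0, the groups overlap in all 6 panels, and the *G0s2* to *Abhd5* panel shows 29°C replicate 3 as the only point below 0.

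Whether lipolysis genes moved together from mouse to mouse was examined in 9 relations, on log2 CPM as deviations from the mean of each temperature, so that a difference between temperatures cannot produce a relation. *Pnpla2* and *Lipe* rose and fell together (n = 13, Pearson r = 0.71, permutation p = 0.0121, adjusted p = 0.0427; Spearman rho = 0.68, permutation p = 0.0174, adjusted p = 0.0499). Both also followed the mean level of the mature adipocyte markers, *Pnpla2* with r = 0.70 (permutation p = 0.0142, adjusted p = 0.0427) and rho = 0.81 (permutation p = 0.00294, adjusted p = 0.0265). For *Lipe* the same relation gave r = 0.76 (permutation p = 0.00510, adjusted p = 0.0427) and rho = 0.74 (permutation p = 0.00894, adjusted p = 0.0402). *Lipa* followed the mean level of 8 macrophage markers, with r = 0.64 (permutation p = 0.0268, adjusted p = 0.0604) and rho = 0.66 (permutation p = 0.0222, adjusted p = 0.0499). These 4 relations passed 0.1 after adjustment over the 9.

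Whether these relations passed depended on the libraries used. Leaving out the 2 libraries with the most muscle RNA, a choice made after the data were seen, gave r = 0.62 for *Pnpla2* with *Lipe*, 0.55 and 0.65 for *Pnpla2* and *Lipe* with the adipocyte markers, and 0.50 for *Lipa* with the macrophage markers (n = 11), and none passed after adjustment (permutation, adjusted p = 0.147, 0.234, 0.147 and 0.246). Within the 8 libraries with higher totals r was 0.72, 0.64, 0.69 and 0.64 in the same order (permutation p = 0.0949, 0.265, 0.124 and 0.108), and the cluster of 5 was too small for a value. Without the 2 libraries farthest from the median of the first measure, r was 0.63 for *Pnpla2* with *Lipe* (permutation p = 0.0729). It was 0.82 and 0.81 for *Pnpla2* and *Lipe* with the adipocyte markers and 0.72 for *Lipa* with the macrophage markers (permutation p = 0.00544, 0.00327 and 0.0119). The p values of these last 2 settings are given without adjustment, so they do not show which relations passed.

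**Figure D4:**
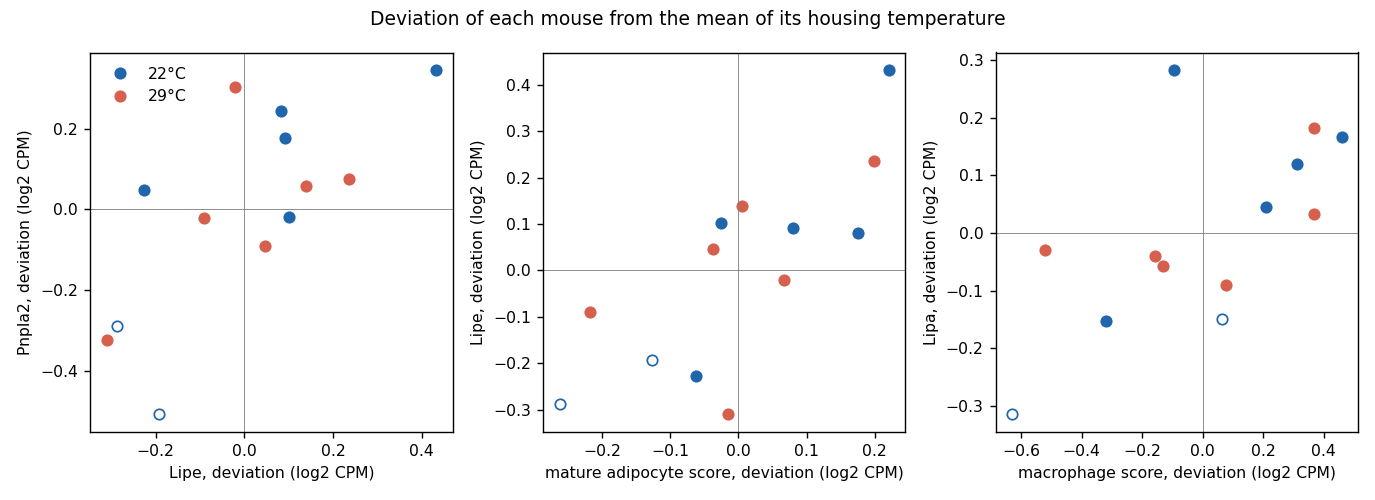
Deviation of each library from the mean of its housing temperature, in log2 CPM, for *Pnpla2* against *Lipe* (left), *Lipe* against the mature adipocyte score (middle) and *Lipa* against the macrophage score (right), where a score is the mean log2 CPM of the markers, 22°C in blue and 29°C in red. The 13 points rise from lower left to upper right in each panel (r = 0.71, 0.76 and 0.64), and open points, 22°C replicates 1 and 7, lie at the low end of the first 2 panels.

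The other 5 relations did not pass. *Pnpla2* had r = 0.45 with its activator *Abhd5* (rho = 0.55, permutation p = 0.168 and 0.0735, adjusted p = 0.251 and 0.132), r = 0.42 with *Mgll* (rho = 0.49, permutation p = 0.167 and 0.110, adjusted p = 0.251 and 0.165) and r = 0.29 with *Aqp7* (rho = 0.25, permutation p = 0.367 and 0.425, adjusted p = 0.373 and 0.478). With its inhibitor *G0s2* it had r = 0.30 (rho = 0.07, permutation p = 0.373 and 0.844, adjusted p = 0.373 and 0.844). *Mgll* and *Aqp7* gave r = 0.36 (rho = 0.29, permutation p = 0.251 and 0.367, adjusted p = 0.322 and 0.472). For *Pnpla2* and *G0s2* the sign depended on the libraries rich in muscle RNA, 22°C replicates 1 and 7, in which both genes were low. Without them r was -0.69 (n = 11, permutation p = 0.0414, adjusted p = 0.147), which did not pass after adjustment. Without the 2 libraries farthest from the median of the first measure, r of the 5 relations stayed between 0.31 and 0.47.

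Across all pairs of the 10 genes, given as a description, the highest correlations of deviations were those of *Abhd6* with *Ces1d* (r = 0.83) and *Lipe* with *Mgll* (r = 0.82), followed by *Pnpla2* with *Ces1d* (r = 0.73) and with *Abhd6* (r = 0.72). *Pnpla3* went the other way from *Pnpla2* (r = -0.39), *Ces1d* (r = -0.45) and *Lipa* (r = -0.46). The points share the scaling of each library, and both libraries rich in muscle RNA enter every pair.

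Among 10251 genes outside the gene lists with at least 10 CPM on average, the levels most like that of *Pnpla2* over the 13 libraries were those of *Imp4* (r = 0.92), *Grina* (r = 0.91), *Por* (r = 0.91), *Asns* (r = 0.89) and *Kdelr1* (r = 0.88). For *Lipe* they were the overlapping *4732471J01Rik* (r = 0.98), then *Fam149a* (r = 0.95), *Carhsp1* (r = 0.90), *Cenpb* (r = 0.90) and *Sort1* (r = 0.89). These r values are the highest of many candidates and were not tested. They use log2 CPM without subtracting the temperature means, and include both libraries rich in muscle RNA.

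The rest of the lipolysis pathway was followed in 52 further genes in 5 roles, of which 50 had enough counts to be tested. Of these, 32 had a higher and 18 a lower mean at 22°C, and the median of their log2 fold changes was 0.03 (0.01 over all genes). Of the 50, 1 gene rose at 22°C at P-adj below 0.1 (0.731% of all tested genes) and 0 fell (1.21%). An unadjusted p below 0.05 was reached by 8 (18.5%), and the groups did not overlap for 1 (1.24%). DESeq2 called 4 of the 50 genes (*Abhd16a*, *Plin5*, *Npr3* and *Ptger3*, 10.2% of all genes) and limma on the rlog values called 1 (*Abhd16a*, with 2% of all genes called). By edgeR the gene that passed was *Abhd16a*, which encodes a phosphatidylserine lipase. It lay between 88.3 and 105 CPM at 22°C and between 79.2 and 88.0 CPM at 29°C, with means of 96.8 ± 5.68 CPM (SD, n = 7) and 83.8 ± 3.50 CPM (SD, n = 6). The log2 fold change of *Abhd16a* was 0.21 (SE 0.05, P-adj = 0.0896). That call did not survive most alternatives, since it was kept in 3 of 13 fits that each left out a library and P-adj ranged from 0.00899 to 0.268 over 26 alternatives.

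Of 7 gatekeepers of the lipid droplet surface, 3 had a higher and 4 a lower mean at 22°C. By edgeR's test 0 passed (1.94% of all tested genes), with 2 at an unadjusted p below 0.05 (18.5% of all tested genes). *Plin1*, the perilipin that holds *Abhd5* in the resting adipocyte, had 2487 ± 411 CPM (SD, n = 7) against 2446 ± 365 CPM (SD, n = 6), the 22°C group first here and below (log2 fold change 0.02, SE 0.13, P-adj = 0.944). For *Plin4* the log2 fold change was -0.23 (SE 0.12, P-adj = 0.324), and for *Cidec*, which promotes droplet fusion, -0.20 (SE 0.13, P-adj = 0.435). *Plin1*, *Cidec* and *Fabp4* are also among the 8 adipocyte markers. *Plin5*, the perilipin of oxidative tissues, was named after its values were seen, because DESeq2 called it. It had 9.76 ± 2.15 CPM (SD, n = 7) and 6.81 ± 1.98 CPM (SD, n = 6), a difference of 0.52 in log2 (SE 0.19) and P-adj = 0.193 by edgeR, and P-adj = 0.0967 by DESeq2. Among the libraries with higher totals the *Plin5* value was 0.25 (SE 0.28, P-adj = 0.756).

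In adrenergic and cAMP signalling, 8 of 15 genes had a higher and 7 a lower mean at 22°C. By edgeR's test 0 of 15 passed (1.94% of all tested genes), with 1 at an unadjusted p below 0.05 (18.5% of all tested genes). *Adrb3*, the β-adrenergic receptor of adipocytes, had 641 ± 227 CPM (SD, n = 7) and 779 ± 201 CPM (SD, n = 6), which is a difference on the log2 scale of -0.28 (SE 0.24, P-adj = 0.561). *Gnas*, the stimulatory G protein, had 0.07 (SE 0.10, P-adj = 0.763), and *Prkar2b*, a regulatory subunit of protein kinase A, had -0.07 (SE 0.14, P-adj = 0.830).

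Among 10 genes of other hormone inputs 0 passed edgeR's test (1.94% of all tested genes), with 2 at an unadjusted p below 0.05 (18.5%). DESeq2 called 2 of them (10.2% of all genes). *Npr3*, the clearance receptor for natriuretic peptides, lay between 404 and 869 CPM in the 22°C group and between 694 and 1094 CPM in the 29°C group. The fitted difference on the log2 scale was -0.54 (SE 0.19), with P-adj = 0.182 by edgeR and P-adj = 0.0675 by DESeq2. Among the libraries with higher totals the *Npr3* value was -0.97 (SE 0.23, P-adj = 0.259), with the cluster of totals as a covariate -0.96 (SE 0.27, P-adj = 0.237), and with the muscle score -0.37 (SE 0.20, P-adj = 0.512). *Ptger3*, a receptor for prostaglandin E2 that lowers cAMP, was named after its values were seen. It had 43.1 ± 8.23 CPM (SD, n = 7) and 71.7 ± 29.6 CPM (SD, n = 6), a difference of -0.73 in log2 (SE 0.22), P-adj = 0.130 by edgeR and P-adj = 0.0273 by DESeq2. The values for the lactate receptor *Hcar1* and the insulin signalling kinase *Akt2* were -0.14 (SE 0.28, P-adj = 0.830) and -0.10 (SE 0.12, P-adj = 0.708).

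Genes that handle the released fatty acids and glycerol had 5 of 6 tested members with a higher mean at 22°C, beside 9167 of 17779 tested genes. By edgeR's test 0 of 6 passed (1.94% of all tested genes), with 1 at an unadjusted p below 0.05 (18.5% of all tested genes). *Fabp4*, a fatty acid carrier, had 4537 ± 827 CPM (SD, n = 7) and 4122 ± 336 CPM (SD, n = 6), which is a difference on the log2 scale of 0.14 (SE 0.13, P-adj = 0.624). For *Acsl1*, which activates fatty acids, it was 0.15 (SE 0.20, P-adj = 0.730), and for *Pck1* it was -0.14 (SE 0.23, P-adj = 0.788). Among the libraries with higher totals *Pck1* was at -0.55 (SE 0.34, P-adj = 0.547). Of the other lipid hydrolases, 10 of 12 tested had a higher mean at 22°C, and *Abhd16a* was the 1 that passed (1.94% of all tested genes did). *Lpl*, which hydrolyses circulating TAG, had 9064 ± 1372 CPM (SD, n = 7) and 9834 ± 2926 CPM (SD, n = 6), which is a difference on the log2 scale of -0.12 (SE 0.18, P-adj = 0.774). *Ces1f*, a carboxylesterase related to *Ces1d*, had 0.16 (SE 0.23, P-adj = 0.749), and *Pnpla8*, a phospholipase related to *Pnpla2*, had 0.08 (SE 0.10, P-adj = 0.715).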

How the data were processed

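RNA was extracted from gluteal WAT of 13 mice (7 at 22°C, 6 at 29°C) and sequenced on an Illumina platform. Per the submitters' processing notes, reads were checked with FastQC, aligned with STAR 2.7.5a and counted per gene with featureCounts. The notes name the build GRCm39, the annotation and the strand setting are not given in the sources used here, and no coordinates of the counted genes are therefore printed. The authors deposited raw counts, and a table of rlog values, which are log2 values with shrinkage computed by the authors with DESeq2. No pair of libraries agreed within sampling noise (lowest chi-square per gene 16.4 over 78 pairs). Symbols were matched for 34006 of 34419 genes, and lengths are the merged exons of GENCODE vM21.

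Counts were tested with edgeR 4.0.16 (R 4.3.3) after filterByExpr and TMM scaling, with the quasi-likelihood F test over all 17779 genes kept and Benjamini-Hochberg adjustment, and P-adj below 0.1 was called. CPM uses TMM-scaled library sizes. Alternatives used DESeq2 1.42.0 and limma 3.58.1. Ratios of counts (prior count 0.5) were compared with exact permutation tests, and relations with 100000 shuffles of libraries within each temperature. The 10 genes, the pathway and marker lists and the rules were chosen with earlier results of these data known. Named are the 10 genes and, from the pathway list, every called gene and the 3 of highest CPM per role, and for *Pnpla2* and *Lipe* the 5 genes most alike. Intervals are at 95% confidence. The scripts were tested on simulated data.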

Additional observations from a re-analysis of the deposited data

Results flagged for a closer look

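Of 32 sets of values tested for a sample far from the others, covering the lipolysis genes and their ratios in each temperature group, 2 were picked out, and chance picks out about 1 in 20. The *Mgll* level of 29°C replicate 6 was 1740 CPM, and the nearest other library of the group had 1341 CPM, so that the gap took 0.671 of the group's range. The *Abhd6* level of 29°C replicate 5 was 31.9 CPM with the nearest other library at 23.5 CPM, a gap of 0.775 of the range.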

How the results depend on the processing

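No alternative of the 26 run, counting each left-out library, called any of the 10 lipolysis genes (lowest P-adj 0.268, for *Abhd5* without 22°C replicate 5). *Abhd5* and *Ces1d* kept their sign under all 26. The number of all genes called, 345, was far less stable: 1676 with DESeq2, 42 with no filter on low counts, 40 at P-adj below 0.05, 47 with the muscle score as a covariate, 4 when the cluster of totals was one, 8 among the libraries with higher totals, and 32 (without 29°C replicate 3) to 652 (without 22°C replicate 6) when a library was left out. Small directions turned with the libraries or covariates used, and the cause was not tested. Log2 fold changes with the cluster of totals as a covariate and among the libraries with higher totals were -0.16 and -0.18 for *G0s2*, 0.12 and 0.11 for *Pnpla3*, -0.058 and -0.069 for *Lipe*, -0.080 and -0.089 for *Abhd6*, -0.55 and -0.56 for *Aqp7*, -0.11 and -0.12 for *Plin1*, 0.11 and 0.10 for *Hcar1*, and -0.11 and -0.12 for *Fabp4*. With the muscle score as a covariate and without the 2 libraries with the most muscle RNA they were 0.047 and 0.062 for *Pnpla2*, 0.13 and 0.027 for *Mgll*, 0.0051 and 0.048 for *Lipa*, -0.0029 and -0.057 for *Gnas*, 0.085 and 0.0015 for *Prkar2b*, and 0.15 and 0.036 for *Hcar1*. With the muscle score alone *Pck1* was at 0.022 and *Lpl* at 0.089, and without the 2 libraries *Pnpla8* was at -0.016. With the adipocyte score as a covariate *Mgll* was at 0.037, *Prkar2b* at 0.016 and *Lpl* at 0.00063. Leaving out each library in turn gave ranges that crossed 0 for *Aqp7* (-0.0028 to 0.18), *Lipe* (-0.030 to 0.10), *Mgll* (-0.081 to 0.062), *Lipa* (-0.087 to 0.012), *Plin1* (-0.057 to 0.10), *Gnas* (-0.0089 to 0.11), *Hcar1* (-0.27 to 0.040), *Lpl* (-0.22 to 0.049) and *Prkar2b* (-0.14 to 0.019).

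The 1 call among the further pathway genes became 0 with no filter, with robust dispersion, with the muscle score or the cluster of totals as a covariate, among the libraries with higher totals, without the 2 libraries with the most muscle RNA and at P-adj below 0.05, was 0 to 1 when a library was left out, and was 4 with DESeq2. Among the libraries with higher totals, ratios turned for *G0s2* to *Pnpla2* (-0.12), *G0s2* to *Abhd5* (-0.039) and *Aqp7* to *Pnpla2* (-0.39). Without the 2 libraries with the most muscle RNA none of the 4 relations that passed in the main setting passed after adjustment. For *Pnpla2* with *Lipe*, r was 0.63, 0.72 and 0.62 (without the 2 farthest samples, among the libraries with higher totals, and without the 2 libraries with the most muscle RNA). In the last 2 settings it was 0.64 and 0.50 for *Lipa* with macrophage markers, 0.64 and 0.55 for *Pnpla2* and 0.69 and 0.65 for *Lipe* with adipocyte markers, and *Pnpla2* with *G0s2* turned to -0.69 without the 2 libraries with the most muscle RNA.

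Both groups use replicate numbers 1 to 6, and the labels do not say whether same numbers mark pairs. Deviations of same-numbered libraries were all positively correlated (0.513, 0.409, 0.348, 0.487, 0.0508 and 0.387). Of the 22°C libraries, 4 of 6 correlated best with their own number. Pairing is therefore not excluded, and the main fit, the ratios and the relations did not use the numbers as pairs. With the replicate number as a block, 214 genes were called in place of 345, 0 of 10 lipolysis genes and 0 of the further pathway genes, and *Mgll* was at 0.0095.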
